A study of Homo sapiens with 7 samples.

Results

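The sites described here are peaks called over input for a HOXB13-K13ac precipitation of C4-2B cells. They recurred in a pair of deposited peak lists while being absent from the main lists of the other replicates. They are 4919 of the 45216 peaks of HOXB13-K13ac replicate 2 called against input (10.9%), and of 148463 peaks in all 6 lists. A site was chosen by its overlap. It had to share 1 bp or more with a peak of a further list called against input, here the unassigned list, and no base with any peak of replicate 1 or of replicate 3 against input. The unassigned list is named after the antibody with an added suffix that occurs in no label, so it cannot be tied to a library. It is not known whether it comes from another precipitation or from reads of the replicate 2 library, so recurrence in it cannot be read as an independent replicate. The values that chose the sites are therefore given as descriptions, without a test.

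All libraries come from C4-2B, an established castration-resistant prostate cancer line derived from LNCaP, grown with charcoal-stripped serum, which is low in steroids, with no other treatment in the labels. There are 3 HOXB13-K13ac precipitations, 2 IgG precipitations with a non-specific antibody and 2 inputs of sheared chromatin without precipitation. Nothing in the labels says whether replicates came from separate cultures. A list exists here for each HOXB13-K13ac library, but read depths are unknown, as peak lists carry no counts of reads. For replicate 1, the list does not say which control was used. Labels of replicates 1 and 3 differ only by a leading number and a separator mark within the antibody's name, and their lists were assigned by that mark. As both lists serve here to exclude peaks, exchanging them would leave the 4919 sites unchanged. Distances to replicate 1 or 3 peaks, the summit distances to replicate 1 and the sites shared by replicates 1 and 2 do rest on this assignment. Replicates 2 and 3 carry the same leading number in their labels and replicate 1 another, and the meaning of these numbers is not given.

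HOXB13 is a homeodomain transcription factor of the prostate lineage, which binds DNA at enhancers and promoters, often together with the androgen receptor, forkhead and MEIS proteins. Acetylation of a lysine near its amino terminus is a modification that acetyltransferases such as CBP and p300 can place and that bromodomain proteins can read. In ChIP-seq, a peak is a stretch where precipitated fragments exceed those of a control. Absence from a list is not absence of binding. The lists were also shortened before deposit: of the peak numbers, 59.9% are missing for replicate 2, 69.0% for the unassigned list, 40.7% for replicate 1 and 93.5% for replicate 3. A peak removed by that filter counts as absent here.

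The repeated sites were weaker and narrower than the replicate 2 list as a whole and stronger than the peaks seen in it alone. The authors' fold enrichment over input had a median of 5.76 at the repeated sites in the replicate 2 list (interquartile range 4.87 to 6.81, highest 17.0). In the whole replicate 2 list the median was 6.50. Replicate 2 peaks found in no other list, of which there were 11740, had a median of 4.26, and the 28557 shared with replicate 1 or 3 had 9.10. The repeated sites thus stood between the peaks seen once and the pooled shared ones. This order did not hold for every shared peak. The 24500 shared peaks in the unassigned list had a median fold of 10.3, and the 4057 not in it had 4.87, below the repeated sites. The median width of the repeated sites was 513 bp, against 379 bp for peaks in no other list and 857 bp for all shared peaks. Shared peaks in the unassigned list had a median width of 946 bp, and those not in it 500 bp, close to the repeated sites. The repeated sites covered 2.85 Mb, and 8 were wider than 2 kb. The −log10 q of the authors' caller had a median of 6.14 at the repeated sites, and all but 8 sites reached a q of 0.05.

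In the authors' numbering, which runs from the smallest p up to 112654, repeated sites were most frequent from 20000 to 30000. None of the first 5000 numbers was a repeated site, with 4997 of those peaks present. The lowest number of a repeated site was 6226. From number 5000 to 10000 there were 26 among 4988 peaks (0.521%), from 20000 to 30000 there were 2136 among 8841 (24.2%), and above 50000 there were 344 among 6260 (5.50%).

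In the unassigned list the same sites had lower values. Its fold enrichment at them had a median of 4.78 (interquartile range 4.18 to 5.51, highest 19.3), against 6.39 over all 36205 peaks of that list. The replicate 2 value was the higher one at 4164 sites (84.7%), and the median ratio of replicate 2 to unassigned was 1.23, with 5th and 95th percentiles of 0.874 and 1.60. At shared peaks that are also in the unassigned list, the replicate 2 value was higher at 93.0% and the median ratio was 1.31, which is the same direction. Peak widths at the repeated sites had a median of 393 bp in the unassigned list, and replicate 2 had the wider peak at 86.7%. Across the 4919 sites the folds of both lists ranked alike with a Spearman's rho of 0.66, compared with 0.94 across the 24500 shared peaks, which span a wider range. These correlations run across sites, which are not independent replicates. In both lists, 1850 sites (37.6%) had a −log10 q of 5 or more.

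**Figure D1:**
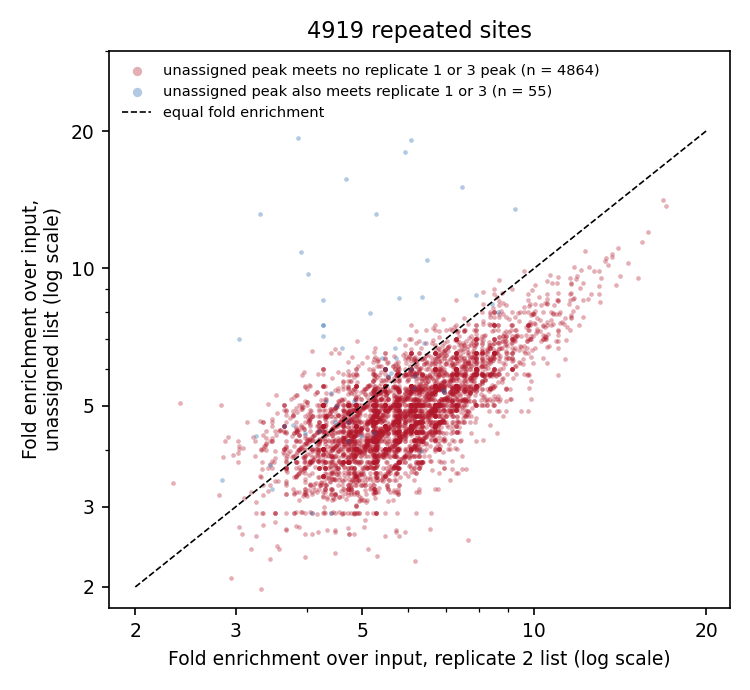
Each point is a repeated site, with its fold enrichment over input in the replicate 2 list on the horizontal axis and in the unassigned list on the vertical axis (both log scales, dashed line at equality). Most points lie below the line, 84.7% having the higher value in replicate 2, and the 55 blue points are those whose unassigned peak also reached a replicate 1 or 3 peak.

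Most repeated sites paired with 1 unassigned peak each. The 4919 sites met 4913 unassigned peaks, counting for each the overlapping peak of highest fold, which is 13.6% of that list. Of the sites, 4848 met a single unassigned peak. Of all 4919, 3599 held their overlapping unassigned peak of highest fold entirely within their own bounds. In 55 cases (1.12%, 95% interval 0.843 to 1.45) the unassigned peak was longer and also touched a replicate 1 or 3 peak beside the site. These 55 had a median unassigned width of 963 bp and summits a median of 544 bp apart, against 391 bp and 35 bp for the other 4864. They also held most of the sites whose fold was far higher in the unassigned list: of the 19 sites with an unassigned fold at least 1.5 times that of replicate 2, 16 were among them. In 38 of the 55, the unassigned peak also met a replicate 2 peak shared with replicate 1 or 3.

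Summits, the positions of highest signal, lay close together. As sites were chosen by overlap of narrow peaks, the choice itself limits this distance. The distance between the summits of both lists had a median of 36 bp at the repeated sites (interquartile range 13 to 69) and was 100 bp or less at 4145 of them (84.3%). At shared peaks the distance between replicate 2 and the unassigned list was 34 bp (12 to 65), with 84.3% within 100 bp. The summits of replicates 2 and 1 lay farther apart at the 28431 peaks they share, with a median of 85 bp (37 to 220) and 55.3% within 100 bp. At the 24382 of these peaks that are also in the unassigned list, it was 81 bp (35 to 204), with 57.2% within 100 bp. Within bands of equal fold the distance was somewhat shorter at repeated sites: 32 bp against 38 bp for folds of 6 to 8, and 29 bp against 35 bp for 8 to 12. Shared peaks of those folds were wider, with medians of 711 bp and 884 bp, against 545 bp and 618 bp at the repeated sites.

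**Figure D2:**
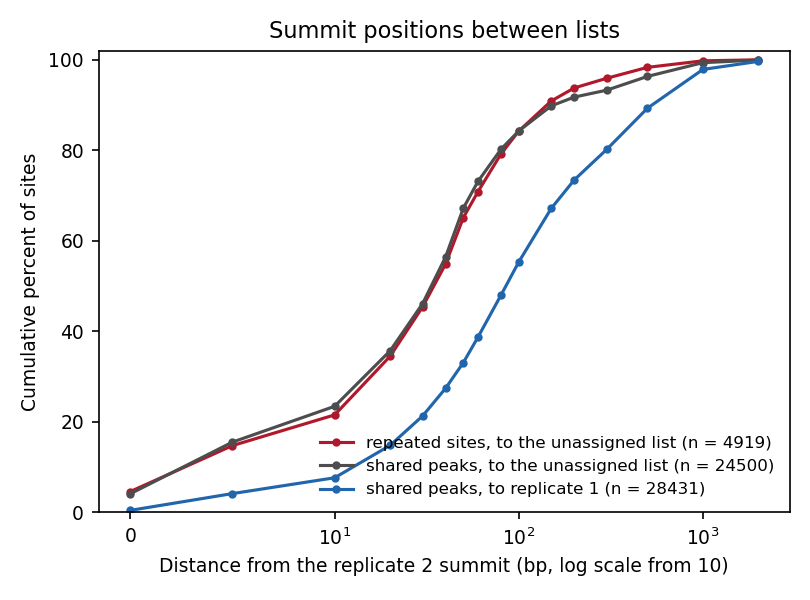
Cumulative percent of sites (vertical axis) by the distance in bp between the replicate 2 summit and the summit in another list (horizontal axis, log scale from 10 bp). The curves of repeated sites and shared peaks to the unassigned list nearly coincide and reach 84.3% at 100 bp, and the curve of shared peaks to replicate 1 reaches 55.3%. That last curve covers 28431 shared peaks, and the curve of shared peaks to the unassigned list 24500.

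Stronger peaks were repeated more often. Of all 16659 replicate 2 peaks absent from replicates 1 and 3, 29.5% were in the unassigned list. The share was 6.40% (95% interval 5.69 to 7.17) below a fold of 4, 16.6% (15.7 to 17.6) from 4 to 5, 44.4% (42.6 to 46.2) from 5 to 6 and 74.4% (72.6 to 76.2) from 6 to 8. From 8 to 12 it was 95.5% (93.3 to 97.2), and all 29 peaks with a fold of 12 or more were repeated (interval 88.1 to 100). Peaks absent from replicates 1 and 3 reached such folds rarely, since 9760 replicate 2 peaks had a fold of 12 or more and the 29 made up 0.297% of them. Intervals here are exact binomial ones and cover counting error only.

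Few repeated sites were also called against IgG. The replicate 2 library was also called against IgG, a control the rule did not use, although both calls rest on the same precipitated library. Of the 4919 repeated sites, 7 (0.142%, 95% interval 0.0572 to 0.293) shared sequence with a peak of that list. In the whole replicate 2 list 14.0% of peaks did, and among those shared with replicate 1 or 3 it was 22.2% (21.7 to 22.7). Almost all of these were shared peaks of the unassigned list, 6329 of 24500 (25.8%, 25.3 to 26.4). Of the 4057 shared peaks not in that list, 1 was called against IgG (0.0246%, 0.000624 to 0.137). A low share was thus not particular to the repeated sites. Of the 11740 peaks in no other list, 0 were called. Taking 3 counts as an approximate limit for a count of 0, this allows a share of up to 0.0256% (exact 95% upper limit 0.0314%). With IgG peaks limited to a q of 0.05 or less, the count was 0 of 4919 repeated sites, which by the same 3 counts allows a share of up to 0.0610% (exact upper limit 0.0750%), and the whole list had 3.33%. The single peak of replicate 3 against IgG met none of the repeated sites. Because all these peaks come from 1 library, no test between them was made.

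Shared peaks of the unassigned list were called against IgG more often than repeated sites within bands of fold from 6 upward. For folds of 6 to 8, 1 of 1724 repeated sites (0.0580%, interval 0.00147 to 0.323) was called against IgG, against 31 of 5009 shared peaks of the unassigned list (0.619%, 0.421 to 0.877). For folds of 8 to 12 the counts were 3 of 470 (0.638%, 0.132 to 1.85) and 625 of 6827 (9.15%, 8.48 to 9.86). For folds of 12 or more they were 3 of 29 (10.3%, 2.19 to 27.4) and 5672 of 9731 (58.3%, 57.3 to 59.3). Among all shared peaks the calls were 31 of 5732 for folds of 6 to 8 and 625 of 6893 for 8 to 12. In these bands no shared peak outside the unassigned list was called. The highest band is open at the top and the shared peaks in it reach a fold of 89.5, so the folds within it are not equal. The widths given above also differ within bands, and their part in the difference was not tested.

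**Figure D3:**
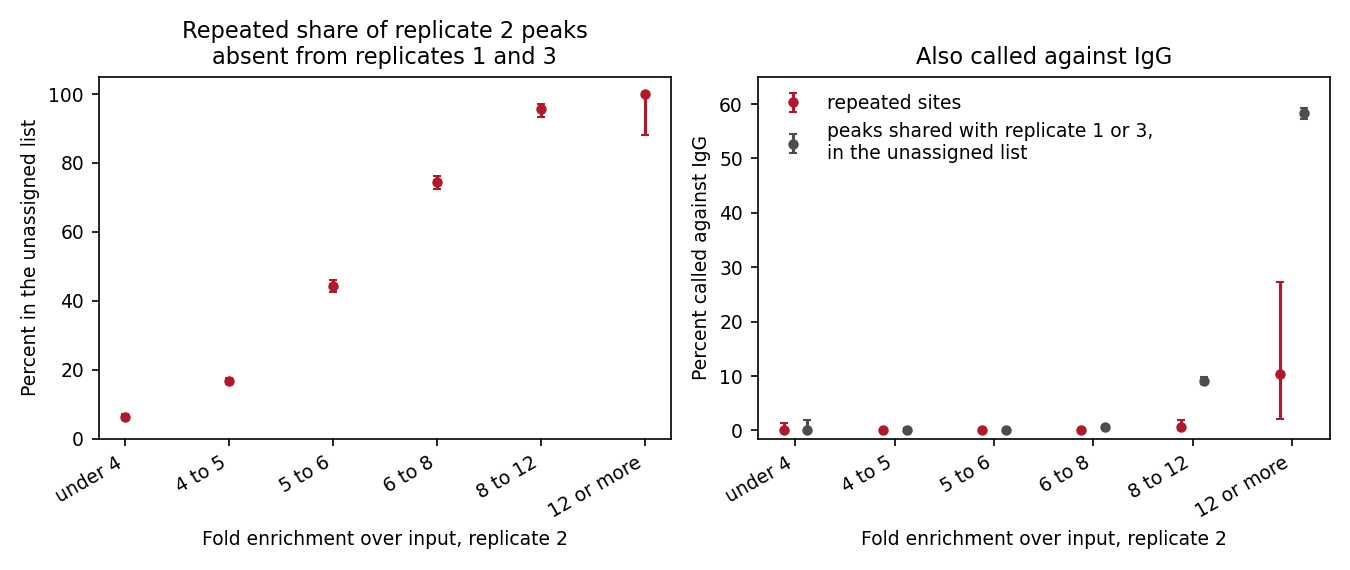
Left, percent of replicate 2 peaks absent from replicates 1 and 3 that were in the unassigned list, by band of fold enrichment over input. Right, percent also called against IgG, for repeated sites (red, left of each pair) and for shared peaks of the unassigned list (grey); bars are exact 95% binomial intervals, and at folds of 12 or more the values are 10.3% and 58.3%.

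The 7 sites called against IgG had low values in that list, with a −log10 p from 2.04 to 4.26. The one with the highest IgG fold was on chromosome 1 from 154393081 to 154394265, with folds of 13.0 over input in replicate 2, 8.45 in the unassigned list and 2.81 over IgG in replicate 2, at a −log10 q of 0.686. The other 6 had a −log10 q of 0 against IgG and folds over IgG between 2.33 and 2.77. One of the 6, on chromosome 6 from 27440993 to 27441506, had folds of 15.5 and 11.4 over input in the replicate 2 and unassigned lists. The site on chromosome 10 from 109730610 to 109731495 had 13.0 and 9.88, and the nearest replicate 3 peak was 180577 bp away, with replicate 1 peaks still farther. The remaining 4 lay on chromosomes 1 (29528559 to 29530337), 3 (45859900 to 45860909 and 69965957 to 69966602) and 13 (34216225 to 34217029), with replicate 2 folds over input of 9.86, 9.23, 7.33 and 10.5 in that order. All 7 had summits no more than 38 bp apart between the replicate 2 and unassigned lists.

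The strongest repeated sites were ranked by the lower of their 2 folds over input. The first lay on chromosome 12 from 122125064 to 122125490, with 16.8 in replicate 2 and 14.1 in the unassigned list and summits 111 bp apart. A site on chromosome 22 from 36587378 to 36587860 had the highest replicate 2 fold of all, 17.0, and 13.7 in the unassigned list. On chromosome 2, from 169383843 to 169385214, a site of 1372 bp had 15.8 and 12.02, although the unassigned peak in it was 376 bp wide. The site on chromosome 6 from 27440993 that was also called against IgG was the next in rank. A site on chromosome 19 from 36394273 to 36394730 had 14.0 and 11.1 and stood 2838 bp from a replicate 1 peak. The other 10 of the first 15 lay on chromosomes 1, 7, 12, 13, 17, 20 and X, and had replicate 2 folds between 11.7 and 14.6 and unassigned folds between 9.91 and 10.9. The chromosome 13 site, from 42295140 to 42295817, was the most isolated of the 15, with the nearest replicate 1 peak 238833 bp away. By contrast, the chromosome 1 sites from 161734601 to 161735171 and from 246772302 to 246773334 lay 71 bp and 76 bp from a replicate 1 peak. In this ranking, 1 of the 15 was called against IgG.

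Repeated sites lay nearer to replicate 1 peaks than replicate 2 peaks in no other list did. The gap to the nearest replicate 1 peak had a median of 4753 bp (interquartile range 450 to 32311), against 12422 bp (1159 to 51570) for replicate 2 peaks in no other list. Of the repeated sites, 1747 (35.5%, 95% interval 34.2 to 36.9) lay within 1 kb of a replicate 1 peak, against 23.7% (22.9 to 24.5) of peaks in no other list. At a distance of over 100 kb there were 464 repeated sites (9.43%, 8.63 to 10.3) and 14.4% (13.8 to 15.0) of the peaks in no other list. Within 10 kb of a replicate 2 peak that meets replicate 1, the shares were 51.1% (49.7 to 52.5) and 39.96% (39.1 to 40.9). Replicate 3 peaks were farther away, with 188 repeated sites (3.82%) within 1 kb, against 2.41% of the peaks in no other list. The replicate 3 list was sparser, with 18232 peaks of a median 235 bp, against 41303 of 555 bp for replicate 1. The part of list size and peak width in this was not tested. The rule removes any peak that touches replicate 1, so these distances describe what is left beside it. Peaks in no other list were also weaker and narrower, as given above. The part of strength and width in the difference in distance was not tested.

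Flanking and isolated repeated sites had like values. The 1747 sites within 1 kb of a replicate 1 peak had a median fold of 6.05 in replicate 2 and 4.86 in the unassigned list. The 1124 sites at 1 to 10 kb had 5.50 and 4.71, and the 2048 sites over 10 kb away had 5.74 and 4.76. Median widths were 533 bp, 515 bp and 494 bp in that order of distance. Summits of both lists lay within 100 bp at 82.0%, 85.4% and 85.6% of sites. The 464 sites over 100 kb away had medians of 5.75 and 4.86 and summits within 100 bp at 86.6%. Of the 1747 flanking sites, 1402 were also within 1 kb of another replicate 2 peak that meets replicate 1.

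**Figure D4:**
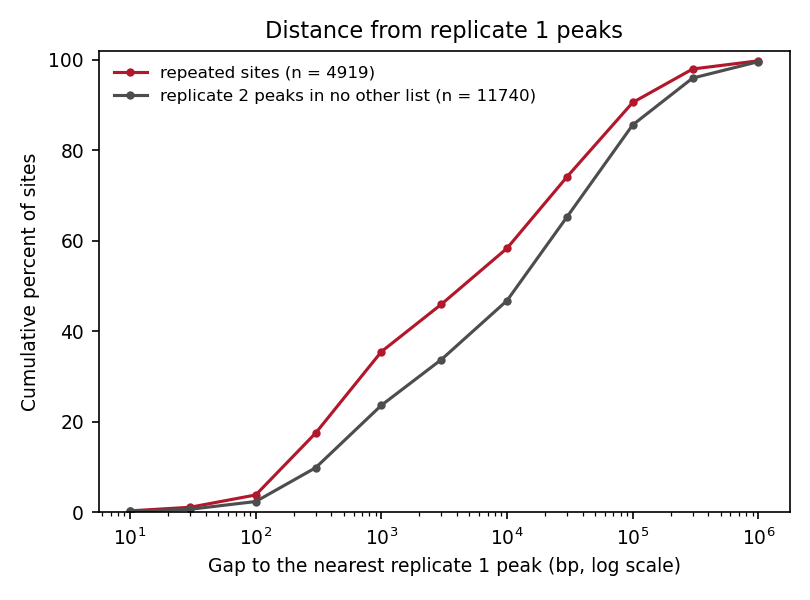
Cumulative percent of sites (vertical axis) by the gap in bp to the nearest replicate 1 peak (horizontal axis, log scale), for repeated sites and for replicate 2 peaks in no other list. The curve of repeated sites lies above the other, with 35.5% against 23.7% at 1 kb and 58.4% against 46.8% at 10 kb.

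At the limit set by replicates 1 and 3, folds inside and outside overlapped. The repeated sites nearest to a replicate 1 or 3 peak, with gaps of 0, 2 and 3 bp, had replicate 2 folds of 7.53, 4.84 and 7.38. The excluded peaks with the least shared sequence, 1, 1 and 3 bp, had 4.19, 6.37 and 7.91. In all, 42 sites had a gap of 20 bp or less and a median fold of 5.94, and 28 excluded peaks shared 20 bp or less and had 5.64. On the side of the unassigned list, the smallest overlaps were 2, 7 and 8 bp, with replicate 2 folds of 4.26, 4.40 and 3.26, unassigned folds of 8.51, 5.34 and 4.29 and summits 1110, 795 and 373 bp apart. All 6 sites sharing 20 bp or less had median folds of 4.11 in replicate 2 and 6.93 in the unassigned list, so here the unassigned value was higher, unlike over all repeated sites. The nearest peaks outside, at gaps of 4, 11 and 17 bp, had 5.26, 4.71 and 3.59.

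Repeated sites were found on every chromosome, at 1.64 per Mb (95% Poisson interval 1.59 to 1.69) taking each chromosome as the stretch between its outermost peaks. Chromosome 22 had the highest density with 3.49 per Mb (2.89 to 4.18), and chromosomes 17, 15 and 19 followed with 2.49, 2.25 and 2.23 per Mb. The lowest autosomal value was 1.09 (0.947 to 1.25) on chromosome 4. Shared peaks had 9.52 per Mb overall and 26.6 on chromosome 19, which is rich in genes. The repeated sites made up a smaller part of the replicate 2 list there, 131 of 1920 peaks (6.82%, 5.74 to 8.04), against 10.9% over all chromosomes. Counted against peaks absent from replicates 1 and 3 the order was the other way, with 37.0% (32.0 to 42.3) repeated on chromosome 19 and 29.5% over all chromosomes. Within bands of fold it was 32.5% (26.3 to 39.3) against 25.5% for folds of 4 to 6 and 83.8% (72.9 to 91.6) against 78.3% for 6 or more. Leaving out chromosome Y, which had 13 peaks, the largest parts of the replicate 2 list were on chromosome 18 with 142 of 968 (14.7%, 12.5 to 17.1) and chromosome 8 with 282 of 1963 (14.4%, 12.8 to 16.0).

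Chromosome X had fewer repeated sites per Mb than any autosome. It held 92 repeated sites, or 0.593 per Mb (0.478 to 0.728) and 6.78% (5.50 to 8.26) of its replicate 2 peaks. Of the X-linked peaks absent from replicates 1 and 3, 17.8% (14.6 to 21.4) were repeated, against 29.5% over all chromosomes and 42.8% (36.9 to 48.9) on chromosome 22. These peaks were weaker on X, with a median fold of 4.26 against 4.63 overall. Within bands of fold the share was lower too: 9.93% (6.80 to 13.9) against 25.5% for folds of 4 to 6, and 65.2% (54.3 to 74.96) against 78.3% for 6 or more. For 6 or more, chromosomes 21 (66.7%), 2 (69.5%), 4 (70.9%) and 16 (74.7%) had shares within the interval of X. For 4 to 6 the lowest autosomal share was 18.7%, on chromosome 4. The part of peak strength in the lower share on X was not tested. The unassigned list also held fewer of the shared peaks of X, 76.0% of 840 against 85.8% of 28557. The repeated sites on X had median folds of 6.23 in replicate 2 and 5.01 in the unassigned list, above the 5.76 and 4.78 of all repeated sites.

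**Figure D5:**
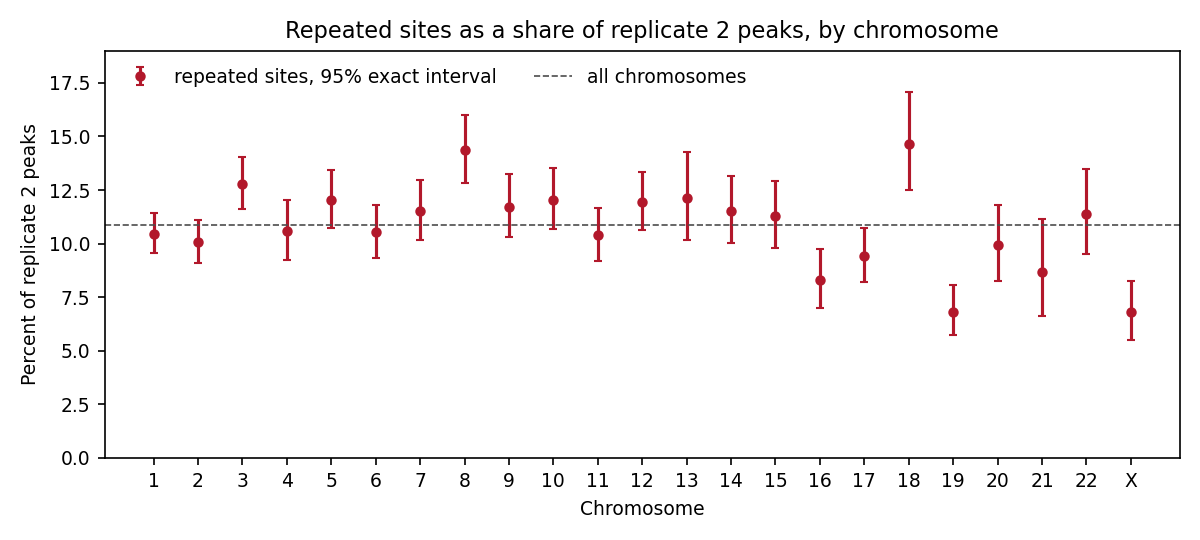
Repeated sites as a percent of replicate 2 peaks on each chromosome (points with exact 95% binomial intervals; dashed line, 10.9% over all chromosomes; chromosome Y is not drawn). Chromosomes 19 and X are lowest at 6.82% and 6.78%, and chromosomes 18 and 8 highest at 14.7% and 14.4%; of the peaks absent from replicates 1 and 3, 37.0% were repeated on chromosome 19 and 17.8% on X.

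Super-enhancers, which the title of the series names, are stretches of closely spaced regulatory sites. Most repeated sites had no other repeated site nearby. When repeated sites with gaps of 10 kb or less were joined, 3938 (80.1%) stayed single, against 74.7% of the peaks in no other list. There were 400 runs of 2 and 56 runs of 3 or more. Peaks shared with replicate 1 or 3 were not joined, so these runs do not describe clustering of all replicate 2 peaks. The 56 runs held 181 sites (3.68%), against 7.25% of the peaks in no other list, which are more numerous. The longest by count lay on chromosome 3 from 177349952 to 177363132, with 6 repeated sites in 13.2 kb, a single replicate 1 peak and no IgG peak. Its 6 replicate 2 folds were 5.33, 6.05, 5.91, 4.26, 6.77 and 8.30 along the chromosome, and those of the unassigned list were 6.31, 5.43, 4.34, 3.68, 4.90 and 6.59. The last site was the highest in both lists and the fourth site the lowest.

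A run of 5 repeated sites covered 19.8 kb of chromosome 17 from 37864459 to 37884306. Its folds were 6.29, 6.61, 6.18, 4.83 and 6.26 in replicate 2 and 4.05, 4.76, 4.47, 2.89 and 4.38 in the unassigned list. Both lists had their highest value at the second site and their lowest at the fourth, and the summits were at most 56 bp apart. Another run of 5 lay on chromosome 3 from 73557889 to 73571209, where replicate 2 folds lay between 3.92 and 6.20 and unassigned folds between 3.13 and 5.83, and the site lowest in replicate 2 was the highest in the unassigned list. On chromosome 1, runs of 4 from 33233275 to 33239378 and from 235109012 to 235117917 contained no replicate 1 or 3 peak, and every replicate 2 peak in them was a repeated site. The first of these had replicate 2 folds of 7.23, 6.21, 6.84 and 4.69 and unassigned folds of 4.97, 4.05, 4.08 and 3.12. Of the other 4 runs of 4 sites, 3 lay on chromosome 14 (30220133 to 30235655) and on chromosome 15 (41080753 to 41100431 and 45781062 to 45797353), with 2, 3 and 7 replicate 1 peaks among them. The last of these also held 2 peaks called against IgG. The fourth, on chromosome 5 from 78467839 to 78490029, held 4 replicate 1 peaks and had replicate 2 folds between 4.20 and 5.26.

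The run of 6 on chromosome 3 was part of a wider accumulation. Of the 2713 windows of 1 Mb with a replicate 2 peak, 839 had no repeated site, the median was 1 and 23 windows had 10 or more. The window on chromosome 3 from 177000001 to 178000000 had 26, the only one with 20 or more. The next, on chromosome 12 from 81000001 to 82000000, had 18. In the chromosome 3 window the 26 repeated sites stood among 82 replicate 2 peaks, 31.7% against 10.9% over the whole list. Of the 82, 14 were in no other list and 42 were shared with replicate 1 or 3. Folds of the repeated sites ran from 4.17 to 9.91 in replicate 2, with a median of 5.98. In the unassigned list they ran from 3.68 to 7.95, with a median of 5.15. Summits were within 100 bp at 22 of the 26. Of the 26, 5 lay within 1 kb of a replicate 1 peak and 12 lay over 10 kb from any. Over all repeated sites, 35.5% lay within 1 kb of one and 58.4% within 10 kb. The window held 70 replicate 1 peaks, 11 replicate 3 peaks and 18 peaks called against IgG. The run of 6 within it held 1 replicate 1 peak and no replicate 3 peak.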

How the data were processed

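ChIP-seq libraries of C4-2B cells were used through 6 deposited peak lists on hg19, counted here from 1. The submitters' processing notes name MACS2, Bowtie2, BWA and CASAVA 1.4; for the role of each, the threshold and the filter, nothing is given in the sources used here. Fold enrichment (a ratio to the control), −log10 p and −log10 q of each peak are the authors' deposited values. The summit offset in each list is the authors' deposited position. Pooling is not stated. Lists were tied to libraries by the spelling of their labels.

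Overlaps, gaps, summit distances and runs were computed in Python 3.11.15 (SciPy 1.17.1, pandas 2.3.3, NumPy 2.4.6), and figures drawn with matplotlib 3.10.9. The code was tested on simulated lists, and 6 of 6 overlap counts equalled those of bedtools 2.31.1. Intervals of 95% are exact (Clopper-Pearson, or Poisson for densities) and cover counting error only. For a count of 0, an approximate limit of 3 counts of the total is given beside the exact one. Read depths are unknown. No test was made, because peaks of 1 library are not replicates. The sites and rules were chosen with earlier results of these data known. Sites named are the 15 highest by the lower of both folds, those called against IgG (at most 10), the 8 runs with the most sites (with a ninth that tied) and 3 on each side of each limit of the rule; windows of 1 Mb and the sites reaching a neighbouring peak were added after seeing the data. The promoter, motif and gene list comparisons that had been planned need an hg19 genome or annotation and were not run, so sites are given by position only.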

Additional observations from a re-analysis of the deposited data

How the results depend on the processing

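In these counts any overlapping unassigned peak could meet the condition, while the values above (4145 and 1850 sites) take the strongest one. Counted with summits within 100 bp there were 4163 repeated sites, and 4295 when 0.5 of each width had to overlap. With a −log10 q of at least 5 in both lists there were 1851, and with no replicate 1 or 3 peak within 1 kb 3120. Leaving out replicate 3 or replicate 1 as an exclusion gave 5037 and 24710, and without replicate 1 the sites it shares enter by construction. The share called against IgG was 0.378% at a −log10 q of at least 5, 0% with IgG peaks at a q of 0.05 or less, and 0.139% to 16.1% when replicate 3 or 1 was left out. The share within 10 kb of a site of replicates 1 and 2 was 53.4% at a −log10 q of at least 5 and 30.6% with the margin of 1 kb; it was 43.5% within 5 kb and 76.3% within 50 kb. Runs of 3 or more were 30 with summits within 100 bp, 35 with 0.5 of both widths, 8 at a −log10 q of at least 5, 19 with the margin, 111 when joined within 20 kb, and 61 to 1815 when replicate 3 or 1 was left out. In all, 15 planned values, some of them given here, stayed near those reported. The share near a site of replicates 1 and 2 has no value without replicate 1, and the promoter, motif and gene list alternatives were not run. In settings added after seeing the data, the repeated share on chromosome X was 15.5% to 26.4% with both replicates kept as exclusions, below the 36.7% to 42.8% of chromosome 22. No paired analysis was possible because the result comes from no test between groups. The depth of every library is unknown, so it cannot be said which peaks a deeper library would add.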

Other observations

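The same rule turned round to replicate 1 gave fewer sites, with summits farther apart. Of the 9360 replicate 1 peaks absent from replicates 2 and 3, 455 (4.86%, 95% interval 4.43 to 5.32) met the unassigned list, against 29.5% for replicate 2 at all folds and 6.40% for its peaks with a fold below 4. Their median fold was 3.74 in replicate 1 and 4.40 in the unassigned list, so here the unassigned value was the higher one. Summits lay a median of 92 bp apart and within 100 bp at 52.7%, against 36 bp and 84.3% at the repeated sites of replicate 2, whose median was 53 bp below a fold of 4. Which control served for replicate 1 is not known, and the part of the control and of peak strength in this difference was not tested. These values rest on the assignment of the replicate 1 and 3 lists. Seen from the unassigned list, 5636 of its 36205 peaks (15.6%) met replicate 2 alone, 497 (1.37%) replicate 1 alone and 971 (2.68%) replicate 3 alone. The 5636 are not the 4913 unassigned peaks met by the repeated sites. Some of the 5636 met replicate 2 peaks that themselves overlap replicate 1 or 3.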
